A study of Mus musculus with 16 samples.

Results

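Strong stops that need no CMC were examined across 18S and 28S rRNA of activated CD4 T cells. Ψ-seq detects pseudouridine as a cDNA end that appears after treatment with CMC, a carbodiimide that forms a stable adduct on pseudouridine. Reverse transcriptase also ends without CMC, and these ends are the background of the assay. Termination was the number of read starts at a position as a percentage of the starts in the 65 nucleotides that end there, within the same rRNA. Members were the positions of 18S and 28S, from nucleotide 66 on, whose mean termination over the 8 mock libraries was at least 4%. This gave 288 of 6472 positions, 50 of 1806 in 18S (2.77%) and 238 of 4666 in 28S (5.10%). Stops are named by the rRNA and the position of the read start, counted from 1 in the rRNA sequences used by the authors. The nucleotide that stopped the enzyme is 1 before the stop.

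The libraries came from total RNA of female mice with 4 animals per genotype. Control animals were Rnmt fl/fl CD4cre -, which carry the floxed Rnmt alleles without Cre, and Rnmt cKO animals were Rnmt fl/fl CD4cre +, in which Cre under the CD4 promoter deletes Rnmt, the cap guanosine N-7 methyltransferase, in T cells. All cells were cultured for 20 h on anti-CD3 and anti-CD28, and 300 ng of RNA per animal went into a mock library or a library with 0.17 M CMC. Age was not given in the labels, and Rnmt RNA and T cell markers could not be checked because the files hold rRNA alone. The 16 libraries held 1130058 to 2165668 read starts, and each member had at least 12 starts and a window of at least 1002 starts in every library. The labels number the replicates of a genotype 1 to 4 and do not state that each is a separate animal, so p-values measure the spread between these samples. They are called animals here. Counting intervals cover counting error only.

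A cDNA can end at a break in the RNA or beside a modified nucleotide. Added groups on the Watson-Crick face of a base (in m1A, m6,2A and m1acp3Ψ) block pairing and stop reverse transcriptase. The enzyme is hindered less by m7G and 2′-O-methylation, and stable structure can slow it. RNA was also fragmented in alkali before reverse transcription, and a 5′ end of a fragment gives a read start at the same place as a stop. These sources cannot be told apart in counts of read starts. Even starts over the window would give 1.54%, and the median over the 6472 positions was 1.16%.

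The sequences around the 18S stops that carry the results are shown with 10 nucleotides on either side of the nucleotide before the stop, which is in capitals. They were read on the plus strand of an 18S copy of GRCm38 at chr17:39846353-39848201, which lies in the single exon of CT010467.1, an rRNA gene annotated by GENCODE vM21 on the minus strand. The copy is 1849 nt long and the 18S of the files 1871 nt. Positions were matched by a shift of 0, 6 or 5 nucleotides, at which all 25 CMC-dependent stops had a T before the stop, or by counting from the 3′ end for 1853 and 1854. The shifts were those with the largest CMC to mock change after a T, so the T at these stops is not an independent check. Shifts of 0 and 6 held only 3 and 2 of the stops. Of 50 members in 18S, 43 could be placed. No 28S sequence was used here, so bases of 28S stops were not read. The first group holds the strongest 18S stops.
18S 1251 (chr17:39847597-39847617, plus strand): ttaatttgacTcaacacggga
18S 1854 (chr17:39848173-39848193, plus strand): ccgtaggtgaAcctgcggaag
18S 1853 (chr17:39848172-39848192, plus strand): tccgtaggtgAacctgcggaa
18S 487 (chr17:39846833-39846853, plus strand): gcaggcgcgcAaattacccac
18S 1642 (chr17:39847988-39848008, plus strand): catgaacgagGaattcccagt
The second group holds the stop with the largest mean log2 change with CMC and 3 stops described in the paired comparison of genotypes.
18S 921 (chr17:39847267-39847287, plus strand): aggccatgatTaagagggacg
18S 1331 (chr17:39847677-39847697, plus strand): gtgggtggtgGtgcatggccg
18S 117 (chr17:39846458-39846478, plus strand): cagttatggtTcctttggtcg
18S 1034 (chr17:39847380-39847400, plus strand): ttaatcaagaAcgaaagtcgg

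Most members were weak. Mean mock termination lay from 4% to under 5% at 106 stops, from 5% to under 10% at 134, from 10% to under 20% at 37, from 20% to under 30% at 4, and at 30% or more at 7. The median was 5.48%. Members stood at 4% or more in both genotype means at 224 stops, in the control mean alone at 27 and in the Rnmt cKO mean alone at 37. Just inside the threshold were 18S 1736, 28S 2155 and 28S 1895, with 4.001%, 4.006% and 4.008%. Just outside were 18S 375, 18S 101 and 18S 102, with 3.994%, 3.993% and 3.991%. The members held 14.4% to 17.2% of all read starts in the mock libraries and 12.5% to 14.1% in the CMC libraries.

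**Figure D1:**
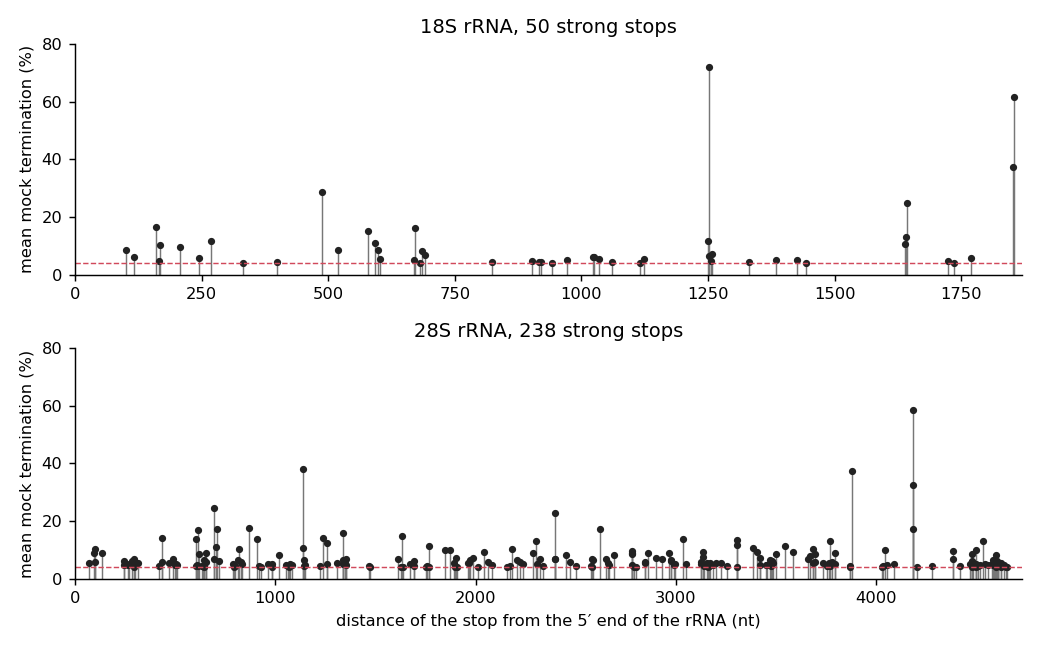
Mean termination over the 8 mock libraries (vertical axis, %) of the 50 strong stops of 18S (upper panel) and the 238 of 28S (lower panel) against the distance of the stop from the 5′ end of the rRNA (nt). The dashed line is the 4% that chose them; the highest stop is 18S 1251 at 71.9%, and 7 stops reach 30% or more.

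Stops were spread over both rRNAs. In windows of 500 nucleotides 28S held 19 to 35 members, and its last 231 nucleotides, from 4501 to 4731, held 24. Members often lay side by side, with 212 members alone, 23 pairs and 9 runs of 3 or 4 adjacent stops, so 76 members were in pairs or runs. Another member lay among the 64 positions before it for 257 of 288, and its starts are in the denominator. The values of close neighbours are therefore not independent.

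The strongest stop was 18S 1251. Nucleotide 1250, a T in the sequence above, is at the place of the uridine of the small subunit that is converted to the hypermodified base m1acp3Ψ in the loop of helix 31, near the P site. Mock termination was 71.8%, 72.5%, 70.2% and 70.3% in controls 1 to 4 and 77.0%, 70.4%, 72.3% and 70.5% in Rnmt cKO 1 to 4. It was the steadiest of all members, with a coefficient of variation of 3.15% over the 8 mock libraries. With CMC the mean was 69.5%.

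Stops 18S 1854 and 1853 lie at the AA pair near the 3′ end, which is dimethylated on the base (m6,2A) in the loop of helix 45. Termination at 1854 was 74.3%, 61.7%, 61.8% and 61.2% in control mock libraries and 69.1%, 54.4%, 54.3% and 55.4% in Rnmt cKO. At 1853 it was 7.78%, 43.4%, 48.1% and 33.6% in control and 27.7%, 50.3%, 45.4% and 41.8% in Rnmt cKO. Control 1 was the highest of 8 at the first and the lowest at the second. Reverse transcriptase meets 1854 first, and the share of the starts of the pair that fell there was 97.1% in control 1 and 88.1% in Rnmt cKO 1, against 69.2% to 81.4% in the other mock libraries. In the CMC libraries it was 70.002% to 84.1%, with 81.4% in control 1.

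The strongest stop of 28S, 4184, had a mean of 58.5% and was the last of 3 adjacent members, with 32.6% at 4183 and 17.3% at 4182. At 4184 the control mock libraries had 73.4%, 56.9%, 57.3% and 58.8% and those of Rnmt cKO had 67.8%, 49.2%, 52.4% and 51.9%. At 4182 the control mock libraries had 1.20%, 21.4%, 16.3% and 17.8% and those of Rnmt cKO had 10.6%, 23.4%, 23.6% and 23.8%. The value of control 1 rests on 12 starts. The order seen at the end of 18S was repeated: control 1 was the highest of 8 at the outer stop and the lowest at the inner one. Among the 32 runs of adjacent members, 18 were strongest at their last position, the one met first, and 10 at their first. Control 1 had the largest share of starts on the last position in 21 of the 32 runs and the smallest in 7.

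28S 1138 was second in 28S, with a mean of 38.1%. It is at about the place of the conserved N1-methyladenosine of the large subunit, although the base was not read here. Its mock termination was 34.1% to 38.6% in control and 38.1% to 40.2% in Rnmt cKO, with an overlap of the genotypes. 28S 3882 had 51.2%, 35.9%, 37.7% and 36.7% in control and 44.7%, 31.1%, 28.6% and 32.9% in Rnmt cKO. Here too control 1 stood above its group.

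The remaining stops among the strongest 10 were 18S 487, 18S 1642 and 28S 693, apart from 28S 4183. Nucleotide 486 is an A and lies at the place of an adenosine that is ribose methylated in mammalian 18S. Its stop had 39.4%, 28.4%, 28.3% and 28.6% in control and 36.6%, 22.9%, 19.2% and 24.8% in Rnmt cKO. Nucleotide 1641 is a G at the place of the N7-methylguanosine of the small subunit. Stop 1642 had 22.5%, 24.1%, 24.6% and 23.6% in control and 25.4%, 25.8%, 28.9% and 25.0% in Rnmt cKO, and members 1640 and 1641 lay beside it. These genotypes did not overlap, with an exact permutation p = 0.0286 (2-sided, the smallest 4 against 4 can give) and an adjusted p = 0.143 over the 30 stops named by rule. In CMC libraries the means were 24.5 ± 0.376% (SD, n = 4) in control and 22.8 ± 1.30% in Rnmt cKO, the opposite order.

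**Figure D2:**
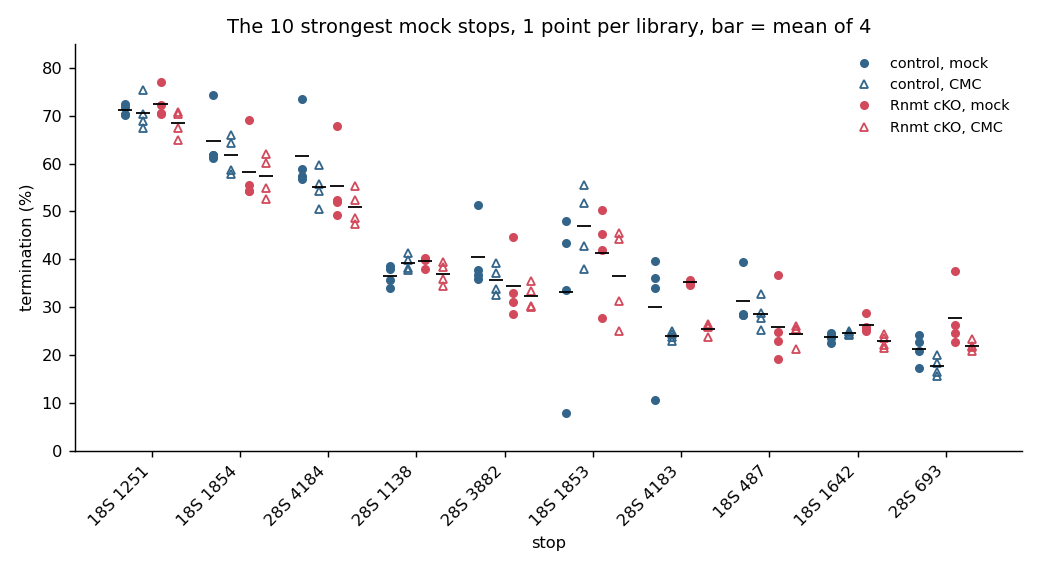
Termination (vertical axis, %) at the 10 strongest mock stops in each library: filled circles are mock and open triangles CMC libraries, blue is control and red Rnmt cKO, and the bar is the mean of 4 animals. At 18S 1854, 28S 4184, 28S 3882 and 18S 487 control 1 and Rnmt cKO 1 are the high mock points of their groups, and at 18S 1853 and 28S 4183 the lowest mock point is control 1.

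The base before the stop was read for 41 members of 18S placed by the shift. It was T at 18 (43.9%, exact binomial 95% interval 28.5 to 60.3%), A at 11, C at 7 and G at 5, whereas T made up 22.02% of the 1535 placed positions. The base at the stop was G at 18 (43.9%, against 29.1%) and C at 3 (7.32%, against 26.2%). A pyrimidine followed by a purine spanned 20 of the 41 stops (48.8%, against 23.0% of all placed positions). The share of T before the stop was 38.9% of 108 stops at a threshold of 3%. At 5% T and A each had 34.6% of 26 stops. The interval treats stops as independent, and some of the 41 lie side by side. No test was made of these shares, because the members were chosen from the same libraries.

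Before the conditions are compared, the libraries need to be described, since control 1 stood apart among the mock libraries. On log2 mock termination of the 288 members, 78.3% of the variance among the 8 libraries lay on a single component, with a loading of 0.78 for control 1 and 0.21 for Rnmt cKO 1. The loadings of Rnmt cKO 2, 3 and 4 were -0.32, -0.42 and -0.27, and those of controls 2 to 4 were between -0.04 and 0.04. Control 1 was the highest of the 8 mock libraries at 79 members (27.4%, against 21.2% of 3985 tested positions) and the lowest at 151 (52.4%, against 45%). It differed from the mean of controls 2 to 4 by more than 1 on the log2 scale at 45 members, 33 higher and 12 lower. Rnmt cKO 1 differed in this way from Rnmt cKO 2 to 4 at 30 members, 28 higher and 2 lower. These 2 differences share no library, and across the 288 members they had r = 0.81. In the CMC libraries of the same animals r was 0.07, and such a difference was seen at 4 members in control 1 and at 0 in Rnmt cKO 1.

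**Figure D3:**
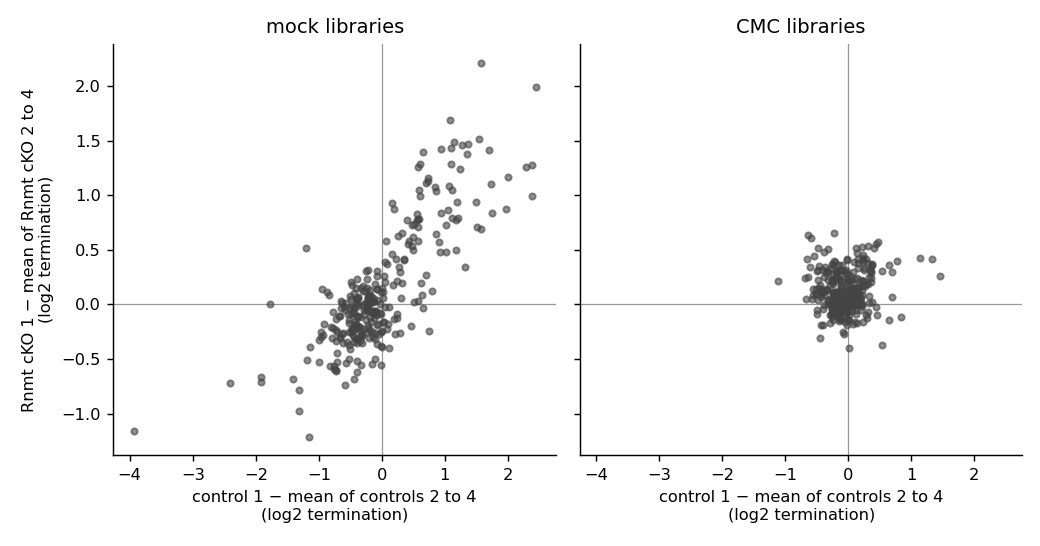
Each point is 1 of the 288 stops. The horizontal axis is log2 termination in control 1 minus the mean of controls 2 to 4, and the vertical axis is the same for Rnmt cKO, in mock (left) and CMC libraries (right). The mock points run along a diagonal up to 2.44 in control and 2.22 in Rnmt cKO, while CMC points gather around 0.

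The members that varied most show this. 28S 1142, near 28S 1138, had 24.6% in control 1 against 3.90%, 4.82% and 4.94% in controls 2 to 4, and 7.46% in Rnmt cKO 1 against 1.68%, 1.81% and 2.14% in the others. Its coefficient of variation was the largest, 119%. 28S 1348, 28S 791 and 28S 1971 came next, with 18.6%, 14.3% and 21.3% in control 1 against at most 4.91% in controls 2 to 4. Of the 24 members with a coefficient of variation over 50%, control 1 was the highest library at 23 and the lowest at 1. A single high library raises the mean that chose the members, and a low one does not, so this count is a description. Without control 1 the mean mock termination was 3.53% at 28S 1348, below the threshold, and 4.55% at 28S 1971. The low end held inner stops of runs, such as 28S 4182, 18S 1853 and 18S 1250, which had 3.54% in control 1 and 12.1% to 14.9% in controls 2 to 4.

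The base before the stop differed between these sets in 18S. Where control 1 was the highest mock library, the 20 placed members had A before the stop at 8, T at 6, G at 4 and C at 2. Where it was the lowest, the 13 placed members had T at 9, C at 3, G at 1 and A at 0, and a pyrimidine followed by a purine spanned 11 of 13, against 5 of 20. The sets were formed from the values of control 1, so they are a description. Control 1 had 1850996 read starts, and the other mock libraries had 1130058 to 2165668.

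The first comparison asked whether the stops change with CMC. None of the 70 CMC-dependent sites in all rRNAs of the files was a member. Sites were called with the thresholds of the study, applied to termination as defined here. The thresholds were a mean CMC termination of at least 3% and a CMC to mock ratio of at least 3. A mean mock termination of at least 4% leaves little room for such a ratio, so nothing is read from this absence. Mean CMC termination was at least 4% at 234 of the 288 members and at least 3% at 286, with a median of 5.07%. Across members, mean mock and mean CMC termination had a Spearman rho of 0.889, with RNA of the same animals behind both. The mean log2 ratio of CMC to mock over the 8 animals had a median of -0.15 and was below 0 at 227 members, and it lay within 0.5 of 0 at 284. Its median over the 4026 tested positions was -0.04. Members were chosen for high mock values, which by itself lowers this ratio.

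**Figure D4:**
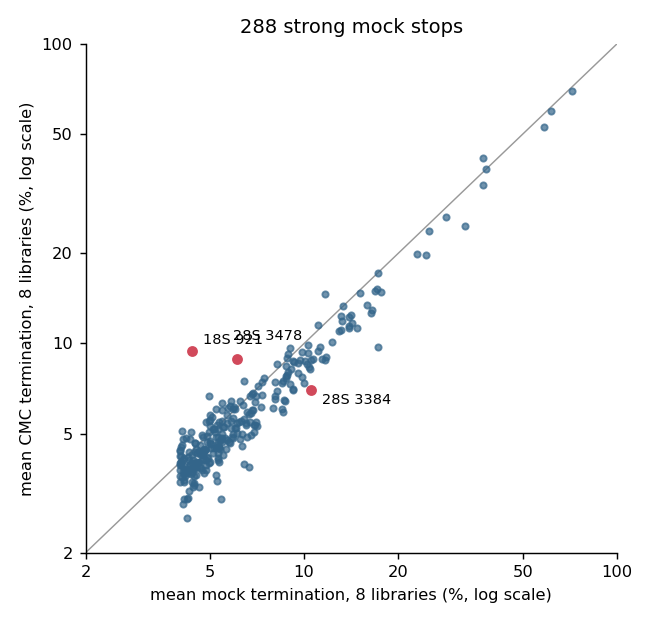
Mean termination over the 8 CMC libraries (vertical axis, %, log scale) against the mean over the 8 mock libraries (horizontal axis, %, log scale) for the 288 stops, with the line of equal values. Most points lie along or slightly below the line, and 18S 921, at 4.38% in mock and 9.40% in CMC libraries, lies farthest above it.

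To keep the tested libraries out of the choice of stops, positions of at least 4% in the mock libraries of one genotype were tested in the other. The animal was a block. The choice is not fully apart from the test, because the mock libraries numbered 1 of both genotypes deviated together. Of 287 positions chosen in Rnmt cKO, 10 differed between CMC and mock in control (3.48%; edgeR, adjusted p under 0.05), 2 higher and 8 lower, against 5.54% of 4044 tested positions, of which 4.5% were higher and 1.04% lower. Of 292 positions chosen in control, 11 differed in Rnmt cKO (3.77%), 5 higher and 6 lower, against 8.02% of 4015, with 5.75% higher and 2.27% lower. The median log2 change was -0.11 in control, where it was -0.02 over all tested positions, and -0.13 in Rnmt cKO, where it was -0.06. Without control 1 the count in control was 65, 14 higher (4.88%) and 51 lower (17.8%), against 23.9% of 4045 positions, with 11.5% higher and 12.3% lower. Without control 2, 3 or 4 it was 1 each time (0.348%, against 2.25%, 1.91% and 1.98% of tested positions). Without Rnmt cKO 2, 3 or 4 the count in Rnmt cKO was 3, 4 and 2 (1.03%, 1.37% and 0.685%, against 3.73%, 4.62% and 4.26%). When positions were chosen in Rnmt cKO 2 to 4 alone, 12 of 293 differed in all controls (4.1%, against 5.54%). Of these, 4 were higher (1.37%, against 4.5%) and 8 lower (2.73%, against 1.04%).

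Among the 288 stops, the mean log2 change with CMC over the 8 animals was largest at 18S 921, where nucleotide 920 is a T. Mock termination was 3.06%, 4.05%, 4.84% and 3.77% in control and 4.14%, 4.65%, 5.74% and 4.76% in Rnmt cKO. With CMC it was 8.22%, 9.17%, 10.3% and 10.1% in control and 10.5%, 9.60%, 9.30% and 8.07% in Rnmt cKO. Every CMC library was above every mock library. The log2 change was 1.28 ± 0.11 (SE) in control, where the position had been chosen in Rnmt cKO (edgeR, adjusted p = 0.00205). In Rnmt cKO it was 0.96 ± 0.14, given without a test because the stop was below 4% in control. The CMC to mock ratio was 2.17, below the 3 needed for a site call.

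28S 3478 rose with CMC in Rnmt cKO. Its mock termination was 10.3%, 6.44%, 7.34% and 6.88% in control and 7.14%, 2.83%, 3.34% and 4.35% in Rnmt cKO. With CMC it was 10.2%, 8.73%, 9.28% and 8.21% in control and 9.67%, 7.14%, 8.60% and 9.39% in Rnmt cKO. The CMC libraries of the genotypes were alike in range, and the mock libraries of Rnmt cKO 2 to 4 were the low ones. The log2 change was 1.06 ± 0.17 in Rnmt cKO (edgeR, adjusted p = 0.00514) and 0.25 ± 0.11 in control (adjusted p = 0.223), and the interaction of genotype and CMC had an adjusted p = 0.785. 28S 3304, in a run of 3, was higher with CMC in 8 of 8 animals, with 8.07% to 14.8% in mock and 13.2% to 16.9% in CMC libraries. 18S 921 and 28S 3304 were the 2 members with a higher CMC than mock value in every animal (0.694%; 9.84% of tested positions). Since the rule used the mock values, nothing is read from this share.

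Falls with CMC were smaller. 28S 3384 had 15.0%, 10.6%, 11.2% and 10.2% in control mock libraries and 8.62%, 7.56%, 7.53% and 7.07% with CMC, a log2 change of -0.60 ± 0.10 (edgeR, adjusted p = 0.0316). In Rnmt cKO it had 12.0%, 8.67%, 8.43% and 8.37% in mock and 8.00%, 3.81%, 6.78% and 6.66% in CMC libraries. 28S 4030 was lower with CMC in 8 of 8 animals, with 3.71% to 4.42% in mock and 2.64% to 3.36% in CMC libraries, with a log2 change of -0.47 ± 0.08 in control (edgeR, adjusted p = 0.0341). 28S 489 and 18S 1061, a stop with A before it, fell in both cross-chosen tests. Lower CMC than mock values in 8 of 8 animals were seen at 38 members (13.2%; 7.55% of tested positions), a share that the choice by mock values also bears on. In the trio of 28S the inner stops 4182 and 4183 fell in Rnmt cKO, by 0.84 ± 0.20 and 0.47 ± 0.11 on the log2 scale (edgeR, adjusted p = 0.0366 and 0.0354). At 4183 the log2 change in control was -0.20 ± 0.33 (edgeR, adjusted p = 0.736), and the interaction of genotype and CMC had an adjusted p = 0.842.

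The second comparison asked whether loss of Rnmt altered these stops without CMC. Genotype altered no member past the threshold in mock libraries (edgeR, adjusted p under 0.05, 0 of 288 and 0% of 3985 tested positions; lowest adjusted p among members 0.653), and 49 had an unadjusted p under 0.05 (17%; 6.22% of tested positions). DESeq2 called 3 members, 18S 1770, 28S 2652 and 18S 1724, all higher in Rnmt cKO (0.125% of tested positions). 18S 1770 was a member through the Rnmt cKO mean alone, so its call is a description. The median log2 difference, Rnmt cKO minus control, was 0.12 over members and 0.04 over all tested positions. Termination was outside the range of the other genotype in every library at 47 members (16.3%; 5.37% of tested positions). Of the members, 64 reached 4% in the mean of a single genotype, and the mock values chose them all, so the counts of members in this comparison are descriptions and nothing is read from their excess over the background.

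Animals of both genotypes carry the numbers 1 to 4, and what a number marks is not stated. Taking the number as a pair was an assumption drawn from these mock libraries, and it rests on number 1. Without number 1, the deviations of same-numbered mock libraries had r = 0.0242, -0.0667 and 0.170 for numbers 2 to 4. In CMC libraries every r was below 0. With the number as a replicate block, 16 members passed the threshold in the mock libraries (edgeR; 5.56%; 1.05% of 3985 positions), 16 lower (background 1%) and 0 higher (0.0502%) in Rnmt cKO, with log2 differences from -1.39 to -0.57. They were 6 stops of 18S and 10 of 28S, and 7 of the 16 stood at 4% or more in both genotype means. The others were members through the control mean alone, so their place among the 16 is a description and no p-value is given for them. At all 16, Rnmt cKO 2 to 4 were below every control library, control 1 was the highest of 8 and Rnmt cKO 1 the highest of its group. Control 1 was above controls 2 to 4 by 0.57 to 2.44 on the log2 scale at these stops. 28S 1339 and 18S 117 are among the 7. With both animals numbered 1 left out, their log2 differences between genotypes were -0.94 ± 0.11 and -0.95 ± 0.15 (SE). In the fit with the block and all animals they were -0.89 ± 0.10 and -0.95 ± 0.11. Without these animals 47 members passed the threshold (edgeR; 16.3%; 3.26% of 4021 positions), 38 lower (background 2.49%) and 9 higher (0.771%) in Rnmt cKO, the 16 among them. With the block as well as without these animals it was 40 (13.9%; 2.44% of positions). Of the 38 lower without these animals and without the block, 37 were also higher in control 1 than in controls 2 to 4.

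28S 1339 and 18S 117 came first among the 7 by adjusted p, with a block that was drawn from these same mock libraries. 28S 1339 had 36.6%, 14.2%, 15.6% and 15.5% in control and 21.6%, 7.58%, 7.33% and 8.78% in Rnmt cKO mock libraries, and fell by 0.89 ± 0.10 on the log2 scale (edgeR, replicate block, adjusted p = 0.0165). The groups overlapped only through Rnmt cKO 1. 18S 117 had 16.002%, 4.61%, 6.002% and 6.10% in control and 8.19%, 2.57%, 2.63% and 3.44% in Rnmt cKO, and fell by 0.95 ± 0.11 (adjusted p = 0.0165). Without the block, both stops had an adjusted p = 0.653 (edgeR).

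Of those at 4% in control alone, 18S 1331 had 12.1%, 3.33%, 4.29% and 4.62% in control and 6.84%, 1.26%, 1.39% and 1.83% in Rnmt cKO. The nucleotides before 18S 1331 and 18S 117, a G at 1330 and a T at 116, are at places where mammalian 18S is ribose methylated, as is the A at 1033 before stop 18S 1034. A map of such sites was not used here, so they were not counted among the members. 28S 4277 had 8.06%, 4.65%, 5.06% and 4.88% in control and 4.90%, 2.05%, 2.19% and 2.48% in Rnmt cKO.

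**Figure D5:**
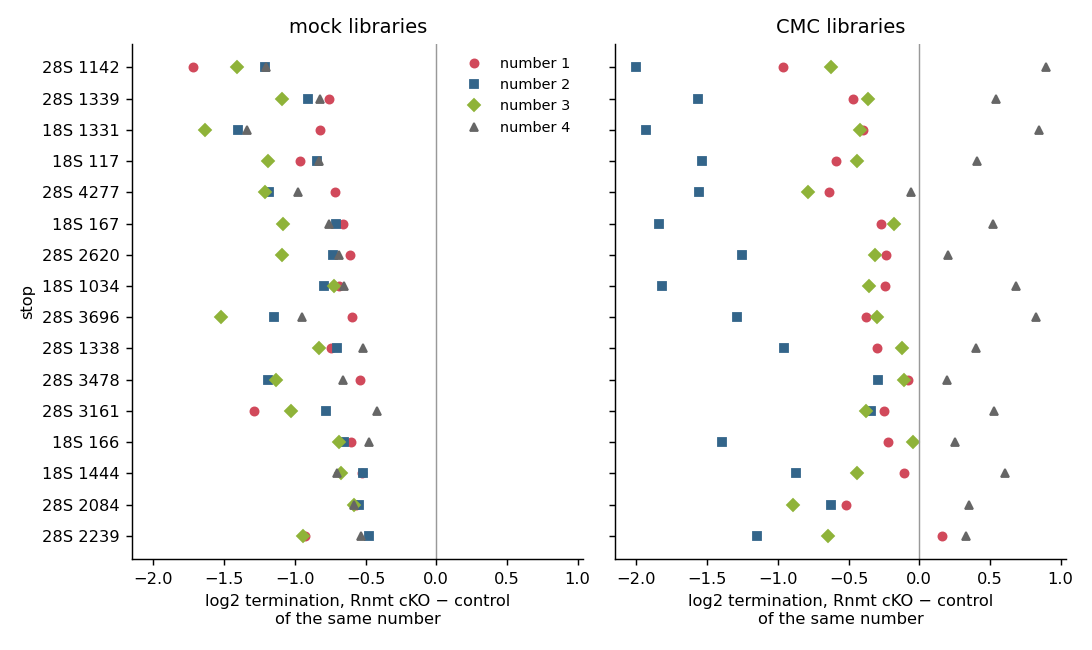
The 16 stops past the threshold in the mock libraries with the number as a block: log2 termination in Rnmt cKO minus control for each number, in mock (left) and CMC libraries (right). All 4 mock differences lie below 0 at each stop, and the CMC differences spread from number 2, low at most stops, to number 4, above 0 at 15 of 16.

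The same stops were then compared in CMC libraries. The choice of members had not used these libraries, but they hold RNA of the same animals. All 16 were lower in the Rnmt cKO mean, with log2 differences from -0.74 to -0.07, and none passed the threshold (edgeR, lowest adjusted p = 0.125). Over all members, 134 were lower and 154 higher in Rnmt cKO in CMC libraries. The 16 had been picked as lower in mock libraries of these animals, so their shared sign is not an independent check. At 28S 1339 the CMC libraries had 18.2%, 16.6%, 14.8% and 11.2% in control and 13.1%, 5.61%, 11.5% and 16.4% in Rnmt cKO, so the groups overlapped. Rnmt cKO 2 was the lowest of the 8 CMC libraries at 13 of the 16 stops, and Rnmt cKO 4 was above control 4 at 15.

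Across all members, the third comparison found no stop past the threshold between genotypes in CMC libraries (edgeR, 0 of 288 and 0% of 4018 positions), with 90 members at an unadjusted p under 0.05 (31.2%, against 15% of positions) and a lowest adjusted p of 0.0684. DESeq2 called 34 members, 32 higher and 2 lower in Rnmt cKO (2.81% of positions, with 1.87% higher and 0.946% lower). With TMM or median-ratio library sizes edgeR called 7 each (2.43%, against 0.324%), and without both animals numbered 1 it called 6 (0.52% of 4037), all higher in Rnmt cKO. The genotypes did not overlap in CMC libraries at 46 members (16%, against 7.94%). Members were higher in Rnmt cKO in 4 of 4 numbers at 63 stops (21.9%, against 11.1%) and lower at 16 (5.56%, against 8.71%). In mock libraries of the same animals, 37 members had been chosen through the Rnmt cKO mean alone and 27 through the control mean alone. The counts of members in this comparison are therefore descriptions, and nothing is read from their excess over the background.

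The smallest p-values were at stops that were higher in Rnmt cKO in both treatments. 18S 1770, in the 3′ part of 18S, had 2.88%, 4.39%, 3.65% and 4.45% in control and 6.57%, 6.41%, 10.6% and 7.02% in Rnmt cKO mock libraries. With CMC it had 3.01%, 3.73%, 3.74% and 4.07% against 6.15%, 5.65%, 5.59% and 5.49%. The values of the genotypes were separate in each treatment. The log2 differences were 0.99 ± 0.21 (SE) in mock and 0.65 ± 0.10 in CMC libraries. They are given without a test, because the control mock mean of 18S 1770 was below 4%. This stop was a member through the Rnmt cKO mean alone. 28S 2690 had 4.63%, 8.00%, 6.95% and 7.12% against 8.02%, 8.71%, 10.9% and 10.3% in mock libraries, and 5.01%, 5.11%, 4.23% and 6.05% against 7.94%, 8.57%, 8.85% and 7.68% with CMC. 28S 2652 had 5.77 ± 0.749% (SD, n = 4) in control and 8.21 ± 0.512% in Rnmt cKO mock libraries, and 4.30 ± 0.437% and 6.36 ± 0.693% with CMC. 28S 3778 had 4.60 ± 0.154% and 6.65 ± 0.572% in the CMC libraries of control and Rnmt cKO. Over the 30 stops named by rule, 6 reached the smallest exact permutation p of 0.0286 in mock and 6 in CMC libraries, with a lowest adjusted p of 0.143 in each. Some of the 30 were named for the smallest genotype p in these same libraries, so both counts are descriptions.

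The interaction of genotype and CMC passed at no member (edgeR, 0 of 288 and 0% of 4026 positions; lowest adjusted p = 0.767), with 22 at an unadjusted p under 0.05 (7.64%, against 6.06%). DESeq2 called 2 members (0.248% of positions), 28S 4577 and 28S 4582, near the 3′ end of 28S, whose change with CMC was higher in Rnmt cKO. Both were members through the control mock mean alone, a choice that by itself lowers the change in control. Their calls are therefore descriptions. 28S 4577 had 10.4%, 8.64%, 4.10% and 3.19% in control and 5.74%, 3.14%, 4.43% and 2.62% in Rnmt cKO mock libraries. With CMC it had 6.001%, 2.16%, 2.15% and 2.23% against 5.60%, 3.23%, 5.55% and 5.69%. The genotypes overlapped in both treatments, and in CMC libraries control 1 was above the 4 Rnmt cKO libraries and controls 2 to 4 were below them.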

How the data were processed

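Per the labels and the study's methods, Ψ-seq libraries of 75 cycles carried a random barcode of 10 nucleotides. The authors extracted it, trimmed adapters, aligned reads to custom rRNA sequences with bowtie2, removed PCR duplicates and kept alignments with a MAPQ of at least 20. The deposited values are counts of read starts per nucleotide, not normalised. Submitters' notes also name STAR 2.5.2b and mm10, with no role given. Depth is given with the results.

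Coverage was replaced by the starts in 65 nucleotides, an upper bound for reads of that length, so termination is a lower bound. Members and lists were chosen with earlier results of these data known. Counts were fitted in edgeR 4.0.16 (glmQLFit and glmQLFTest, 2-sided) with the log of the window as offset. Positions averaging 1% termination or more entered, the first of each rRNA excepted, and p-values were adjusted by Benjamini-Hochberg (threshold 0.05). The CMC effect and the interaction had the animal as a block. In simulated data with 200 positions changed by a factor of 2, it recovered 77.5% for genotype in mock (3985 positions), 86.5% for genotype in CMC (4018), 79% and 89% for the CMC effect in control (4044) and Rnmt cKO (4015), and 79% for the interaction (4026).

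Stops named were the 10 strongest, the 5 largest rises and falls with CMC, the 3 smallest p for each genotype test and the interaction, and those beside the threshold. Others were named after their values were seen. Same-numbered mock libraries deviated together from their genotype means (r = 0.647, 0.415, 0.161 and 0.372 over 3982 positions, all above 0.1), so numbers were taken to pair them. This rests on number 1: without it r was 0.0242, -0.0667 and 0.170 for numbers 2 to 4. In CMC libraries all 4 r were below 0. Replicates differed by more than sampling noise (chi-square over its degrees of freedom at least 2.49 in 24 pairs). DESeq2 1.42.0, limma 3.58.1, R 4.3.3, scipy 1.17.1 and matplotlib 3.10.9 were also used.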

Additional observations from a re-analysis of the deposited data

Results flagged for a closer look

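A test for a far sample (Dixon's 95% critical value) was made at the 30 stops named by rule in 4 groups of 4 libraries each. It was passed in 19 of 120 groups, and 8 of the 19 were the mock library of control 1. About 6 would pass among unselected groups. These stops were named from the same values, so 19 cannot be set against that number. All values are termination.

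In the mock libraries of control, control 1 was far above the others at 18S 1854 (74.3% against 61.2 to 61.8%), 28S 4184 (73.4% against 56.9 to 58.8%), 28S 3882 (51.2% against 35.9 to 37.7%) and 18S 487 (39.4% against 28.3 to 28.6%). It was also far above them at 28S 1348 (18.6% against 3.35 to 3.77%) and 28S 1971 (21.3% against 3.95 to 4.91%). It was far below at 28S 4499 (2.28% against 4.18 to 4.47%) and 28S 2668 (3.03% against 4.10 to 4.26%).

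In the mock libraries of Rnmt cKO, Rnmt cKO 1 was far above the others at 18S 1854 (69.1% against 54.3 to 55.4%), 28S 3384 (12.0% against 8.37 to 8.67%), 28S 1348 (6.26% against 2.28 to 2.87%) and 28S 1971 (8.32% against 3.31 to 3.81%). Rnmt cKO 3 was far above at 28S 4499 (5.72% against 3.67 to 3.99%) and 18S 1770 (10.6% against 6.41 to 7.02%).

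In the CMC libraries, control 1 was far below at 28S 3304 (13.4% against 14.2 to 14.3%) and far above at 28S 4577 (6.001% against 2.15 to 2.23%). Rnmt cKO 3 was far below at 18S 487 (21.2% against 25.2 to 26.0%), Rnmt cKO 4 far above at 28S 1348 (4.10% against 2.30 to 2.57%), and Rnmt cKO 2 far below at 28S 4577 (3.23% against 5.55 to 5.69%).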

How the results depend on the processing

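The number of strong stops depended on the threshold and the window: 577 at 3%, 182 at 5%, and 501, 898 and 1701 with windows of 50, 40 and 30 nucleotides, which shrink the denominator and hold all 288. It ranged from 280 to 290 across the sets that each left out 1 animal, of which 270 to 284 were shared.

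For genotype in the mock libraries the count of 0 members became 3 with DESeq2, 16 with the replicate block, 47 without both animals numbered 1 and 40 with the replicate block and without them (5 higher and 35 lower in Rnmt cKO). The last 2 fits were chosen after seeing the data. It was 0 whenever a single animal was left out, and with the other windows and library sizes. For genotype in CMC libraries the 0 became 34 with DESeq2, 7 with TMM and 7 with median-ratio library sizes, 3 with limma on log2(% + 0.5) and 6 without both animals numbered 1, and lay between 0 and 7 when single animals were left out, with 7 without control 1. The replicate block gave 0. For the interaction DESeq2 gave 2 in place of 0. It stayed at 0 with the replicate block and without any single animal.

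When single animals were left out, the CMC effect in control was counted at 1 to 65 stops in place of 10, and that in Rnmt cKO at 2 to 16 in place of 11. In Rnmt cKO it was 5 with TMM and 5 with median-ratio library sizes, and 20 and 23 with windows of 40 and 30. Without the replicate block the counts were 11 (control) and 13 (Rnmt cKO). Exact tests paired by number called 0 named stops, as did the unpaired ones; 4 pairs cannot go below p = 0.125. The cause of these changes was not tested. Of 720 alternative values at named stops, 642 moved by less than the spread between libraries and 78 by more. The log2 ratio of CMC to mock took the other sign in 9.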
